A study of Mus musculus with 6 samples.

Results

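Caveolae are flask-shaped pits of the plasma membrane, and the RNA of their coat was followed here through the 5 genes *Cav1*, *Cav2*, *Cavin1*, *Cavin2* and *Cavin3*, chosen by name as coat genes out of 55385 genes in the count table. All 5 passed the filter on low counts, as did 16951 genes in all. RNA was sequenced from mouse embryonic stem cells (mESCs) of the G4 line, which has an F1 hybrid mouse background, grown with leukemia inhibitory factor (LIF) on feeder cells of the CD1 strain. The 3 genotypes were wild-type, a CRISPR-Cas9 deletion of the *Wnt6* anchor region on 1 allele (heterozygous) and the same deletion on both alleles (homozygous), with 2 libraries each, and the question was which genes change when this anchor, a Polycomb-bound site that contacts distant sites, is lost. All 3 genotypes shared the line, the medium and the feeder layer, edited cells were picked as single clones, and how many clones stand behind the 2 libraries of a genotype is not given in the sources used here. A difference between genotypes therefore cannot be told apart from a difference between clones.

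Caveolins are hairpin proteins inserted into the inner leaf of the membrane, and caveolin-1 is the one without which caveolae of non-muscle cells do not form. Cavins are cytoplasmic proteins that coat the caveolin-rich membrane, with cavin-1 required for the pits and cavin-2 and cavin-3 joining it in the coat. Caveolae are abundant in fibroblasts, adipocytes, endothelium and muscle, and caveolin-3 and cavin-4 are the muscle forms. The libraries pooled the RNA of mESCs and of any feeder cells lysed with them, so fewer cells of a type and less RNA per cell cannot be told apart.

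The libraries held between 23813912 and 28964706 counts, and 3 counts, the upper limit that a count of 0 allows for counting error alone, corresponded to between 0.102 and 0.131 CPM, the counts of a gene scaled to a common library size. As a check of the genotypes, *Wnt6* was counted 11 and 13 times in the wild-type libraries, 6 and 4 times in the heterozygous ones and 0 times in each of the homozygous ones. Values of a genotype are given in the order of the replicate numbers. Pluripotency markers, 9 genes with *Pou5f1* and *Nanog* among them, were detected in every library, with a summed level from 2615 to 2657 CPM in wild-type, from 2283 to 2362 in heterozygous and from 2582 to 2765 in homozygous libraries. Heterozygous cells had all 9 lower than wild-type cells without overlap (24.0% of all tested genes), 6 of them at an edgeR adjusted p below 0.05 (2.91%), with a median log2 fold change of -0.19. Homozygous cells had 8 of the 9 higher than heterozygous cells without overlap (28.6%). The part of this shift in the members' values was not tested. Of 26 fibroblast markers, 24 were tested and no marker had a count of 0 in wild-type or heterozygous libraries. Their summed level ran from 3581 to 3683 CPM in wild-type, from 2635 to 2673 in heterozygous and from 1955 to 1972 in homozygous libraries. The *Wnt6* anchor region is on chromosome 1, as is *Cavin2*, and the annotated starts of *Cavin2* and *Wnt6* lie 23.5 Mb apart.

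The promoters of the coat genes differed in base composition. The windows from 250 bases before to 50 bases after the annotated start are shown. The sequences are from RefSeq on GRCm38.p6, 5′ to 3′ on the strand of the gene, and capitals mark GC boxes, the letters GGGCGG on either strand. RefSeq windows matched 4 of the 5 genes, all but *Cavin3*. The starts here are those of RefSeq, while the gene positions given below are from GENCODE. The *Cavin1* window lies wholly inside the gene as GENCODE places it (chr11:100956733-100970887). *Cavin2* (chr1:51288876-51289175, plus strand) had a GC content of 43.3%, *Cav1* (first start, chr6:17306085-17306384, plus strand) 59.3%, *Cav2* (chr6:17280935-17281234, plus strand) 64.3% and *Cavin1* (chr11:100970568-100970867, minus strand) 66.7%.
Cavin2: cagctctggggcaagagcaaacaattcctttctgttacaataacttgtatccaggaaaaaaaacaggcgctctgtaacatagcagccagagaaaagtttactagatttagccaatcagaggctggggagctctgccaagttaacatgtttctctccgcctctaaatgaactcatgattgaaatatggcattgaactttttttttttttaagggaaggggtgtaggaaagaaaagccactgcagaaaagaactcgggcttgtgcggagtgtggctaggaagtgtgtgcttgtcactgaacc
Cav1: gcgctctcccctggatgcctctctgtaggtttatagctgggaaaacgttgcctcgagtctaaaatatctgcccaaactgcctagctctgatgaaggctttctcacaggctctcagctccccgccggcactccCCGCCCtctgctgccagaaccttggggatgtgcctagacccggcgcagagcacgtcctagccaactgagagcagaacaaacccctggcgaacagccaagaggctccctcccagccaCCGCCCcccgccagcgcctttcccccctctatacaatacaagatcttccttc
Cav2: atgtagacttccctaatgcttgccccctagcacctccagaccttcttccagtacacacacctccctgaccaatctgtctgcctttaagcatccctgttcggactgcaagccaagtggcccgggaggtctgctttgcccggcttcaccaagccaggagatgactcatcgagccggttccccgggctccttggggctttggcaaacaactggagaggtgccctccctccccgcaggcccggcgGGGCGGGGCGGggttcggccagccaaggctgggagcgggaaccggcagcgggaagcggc
Cavin1: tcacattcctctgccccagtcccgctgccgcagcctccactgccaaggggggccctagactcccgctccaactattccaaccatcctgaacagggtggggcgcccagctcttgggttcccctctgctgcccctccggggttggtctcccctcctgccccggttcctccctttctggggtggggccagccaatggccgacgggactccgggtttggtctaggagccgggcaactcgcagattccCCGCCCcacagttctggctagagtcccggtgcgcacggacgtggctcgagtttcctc
The *Cavin2* window held 0 GC boxes, against 2 in *Cav1*, 2 overlapping ones in *Cav2* and 1 in *Cavin1*, where 35.7% of 32851 such windows held at least 1. *Cav1* has a second RefSeq start, whose window (chr6:17307390-17307689, plus strand) is not shown. That window had a GC content of 62.3% and 0 GC boxes. The contrast with *Cavin2* in GC boxes thus holds for the first start only, while that in GC content holds for both. The median GC content of all windows was 52.7%, with quartiles of 45.7% and 61.7%. A TATA box, TATAAA on either strand, was found in the window of *Cav1* alone among these 4 (13.6% of all windows). This match was on the strand opposite to the gene and began at base -221 from the start. The window of the second *Cav1* start held 0. An AP-1 site, TGANTCA, was found in the window of *Cav2* alone (7.81%), at base -92. A TEAD site, GGAATG on either strand, was found in the window of *Cavin1* alone (14.7%), at base -247 and on the opposite strand. The CArG box, searched on both strands, was found in none of the 4 (1.63%). These matches are letters in a window and not measured binding. Whether base composition or motifs go with the differences between genotypes was not tested.

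In wild-type cells the coat RNA was mostly *Cavin1* and *Cav1*. Levels of different genes were compared as CPM per kilobase of annotated exon. *Cavin1* was at 27.9 ± 0.374 CPM per kb, *Cav1* at 16.4 ± 0.431, *Cavin2* at 5.17 ± 0.124, *Cavin3* at 2.28 ± 0.332 and *Cav2* at 1.58 ± 0.145 (SD, n = 2 each). No neighbours in this order overlapped between libraries. Ranked by CPM among the 28610 genes counted at least 1 time in wild-type libraries, the members ran from the 60.5 percentile for *Cavin3* to the 91.7 percentile for *Cavin1*.

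Across the genotypes the 5 genes followed 2 courses. *Cav1* and *Cavin2* were lower in the heterozygous and lower again in the homozygous deletion, while *Cav2*, *Cavin1* and *Cavin3* were near the wild-type level in the heterozygous deletion and between 74.6% and 81.4% of it in the homozygous deletion. The members were chosen with these 6 libraries known, so their differences are given as a description with standard errors and without a p-value. Standard errors here and below are the size of the log2 fold change divided by the square root of edgeR's quasi-likelihood F statistic.

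*Cav1* (ENSMUSG00000007655, chr6:17306335-17341452, plus strand, 3444 bases of exon), the main structural caveolin, was at 55.6 and 57.7 CPM in wild-type libraries, 35.8 and 40.5 in heterozygous libraries, and 24.6 and 24.9 in homozygous libraries. The 3 genotypes did not overlap, and the wild-type level was the highest. The counts behind these levels were 1632 and 1472, 890 and 1077, and 564 and 649. The fitted log2 fold change was -0.57 (SE 0.0624) in the heterozygous and -1.19 (SE 0.0664) in the homozygous deletion against wild-type. Between the deletions it was -0.62 (SE 0.0693), homozygous against heterozygous. The annotation gives *Cav1* 10 transcripts, 7 of them protein-coding, and counts per gene do not separate them.

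*Cav2* (ENSMUSG00000000058, chr6:17281185-17289115, plus strand, 3335 bases of exon) encodes the caveolin that assembles with caveolin-1, and its start lies 25.1 kb before that of *Cav1*. It was at 5.62 and 4.94 CPM in wild-type libraries, 5.23 and 5.56 in heterozygous libraries, and 3.93 and 4.38 in homozygous libraries. Heterozygous and wild-type libraries overlapped, and both homozygous libraries lay below all others. The log2 fold change was 0.03 (SE 0.132) in the heterozygous and -0.34 (SE 0.14) in the homozygous deletion. Neighbouring genes of the same family thus had different values in the heterozygous deletion, at 67.3% of the wild-type mean for *Cav1* and 102% for *Cav2*. Per length, *Cav1* exceeded *Cav2* by a ratio of 10.4 ± 1.23 in wild-type, 6.84 ± 0.295 in heterozygous and 5.79 ± 0.393 in homozygous libraries (SD, n = 2 each).

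*Cavin1* (ENSMUSG00000004044, chr11:100956733-100970887, minus strand, 3587 bases of exon), the cavin required for caveolae, had the highest level of the 5 genes in every library. It was at 99.0 and 101 CPM in wild-type libraries, 106 and 106 in heterozygous libraries, and 82.7 and 79.9 in homozygous libraries. Both heterozygous libraries were above and both homozygous libraries below the wild-type ones. The log2 fold change was 0.09 (SE 0.0453) in the heterozygous and -0.30 (SE 0.0464) in the homozygous deletion, and -0.39 (SE 0.0464) between the deletions.

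*Cavin2* (ENSMUSG00000045954, chr1:51289126-51302960, plus strand, 3055 bases of exon), which encodes a cavin that binds phosphatidylserine and bends membrane, had the largest differences of the 5 genes against wild-type. It was at 15.5 and 16.1 CPM in wild-type libraries, 6.75 and 8.12 in heterozygous libraries, and 5.72 and 4.27 in homozygous libraries. The 3 genotypes did not overlap, and the heterozygous and homozygous libraries nearest to each other lay at 6.75 and 5.72 CPM. The log2 fold change was -1.08 (SE 0.113) in the heterozygous and -1.67 (SE 0.124) in the homozygous deletion. Between the deletions it was -0.59 (SE 0.141), close to the -0.62 of *Cav1*.

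*Cavin3* (ENSMUSG00000037060, chr7:105480083-105482300, minus strand, 1662 bases of exon), whose product binds protein kinase C delta, had the fewest counts in sum, between 60 and 123 a library. It was at 4.19 and 3.41 CPM in wild-type libraries, 4.02 and 3.31 in heterozygous libraries, and 3.36 and 2.31 in homozygous libraries. Heterozygous libraries overlapped the wild-type and the homozygous ones, and the higher homozygous library was just under the lower wild-type library. The log2 fold change was -0.06 (SE 0.181) in the heterozygous and -0.44 (SE 0.193) in the homozygous deletion. An annotated antisense gene, *Gm45667*, shares 374 bases of exon with *Cavin3* and had at most 4 counts in any library. The kit keeps the strand, and the strand setting of the counting is not given in the sources used here.

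**Figure D1:**
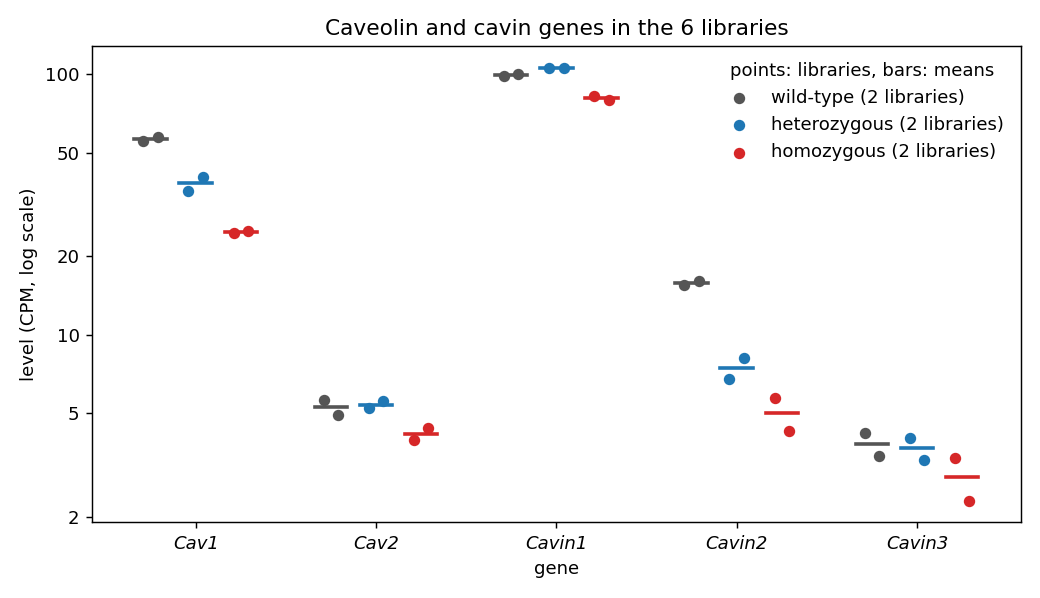
Level of each gene in CPM (log axis) in the 2 libraries of each genotype, with points for libraries and bars for means. *Cav1* steps down from 56.6 to 38.1 to 24.8 CPM and *Cavin2* from 15.8 to 7.43 to 4.99, while the heterozygous points of *Cav2*, *Cavin1* and *Cavin3* lie beside or above the wild-type ones.

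Counted over the 5 genes, the homozygous libraries were below the wild-type libraries without overlap in 5, where 29.4% of all tested genes were, and above them in 0, where 28.4% were. In the heterozygous deletion 2 of 5 were lower without overlap, against 24.0% of all tested genes, and 1 of 5, *Cavin1*, was higher, against 23.7%. Between the deletions 4 of 5 were lower in homozygous cells, against 32.8%, and 0 higher, against 28.6%. The median log2 fold change of the 5 genes was -0.06 in heterozygous and -0.44 in homozygous cells, beside 3.68e-06 and -0.0061 over all tested genes. Nothing is read from these shares, since the same libraries were in view when the genes were chosen.

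**Figure D2:**
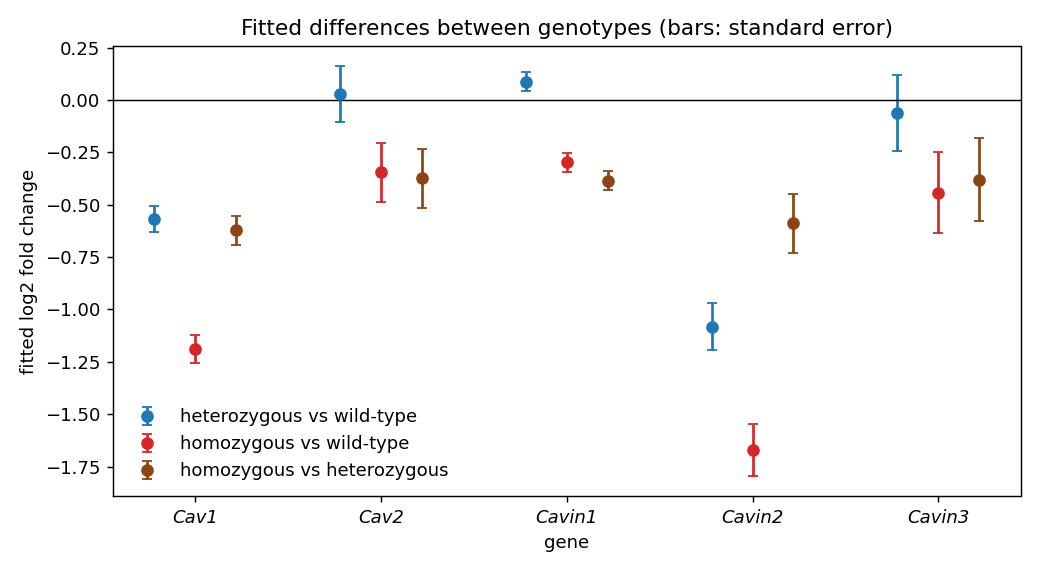
Fitted log2 fold change of each gene for the 3 comparisons, with bars for the standard error of the fit. *Cav1* and *Cavin2* lie at -0.57 and -1.08 in the heterozygous deletion, where the other 3 lie within 0.09 of 0, and at -1.19 and -1.67 in the homozygous deletion, where the other 3 lie between -0.44 and -0.30.

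The makeup of the coat RNA shifted with these differences. The summed level per length was 53.3 ± 0.452 CPM per kb in wild-type, 46.9 ± 1.0 in heterozygous and 34.5 ± 1.18 in homozygous libraries (SD, n = 2 each). The cavins together were at 35.3 ± 0.166, 34.2 ± 0.0327 and 26.0 ± 1.34, and the caveolins at 18.0 ± 0.286, 12.7 ± 1.04 and 8.44 ± 0.160. *Cavin1* made up 52.2% ± 0.258 of the sum in wild-type, 63.1% ± 1.45 in heterozygous and 65.8% ± 0.647 in homozygous libraries. *Cav1* went from 30.8% ± 0.546 to 23.6% ± 1.55 and 20.9% ± 0.903, and *Cavin2* from 9.69% ± 0.150 to 5.18% ± 0.562 and 4.73% ± 0.815. The ratio of *Cavin1* to *Cav1* was 1.69 ± 0.0217 in wild-type, 2.68 ± 0.238 in heterozygous and 3.15 ± 0.105 in homozygous libraries, without overlap. In both deletions *Cavin2* and *Cavin3* overlapped in level per length, whereas in wild-type cells *Cavin2* was the higher in each library.

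**Figure D3:**
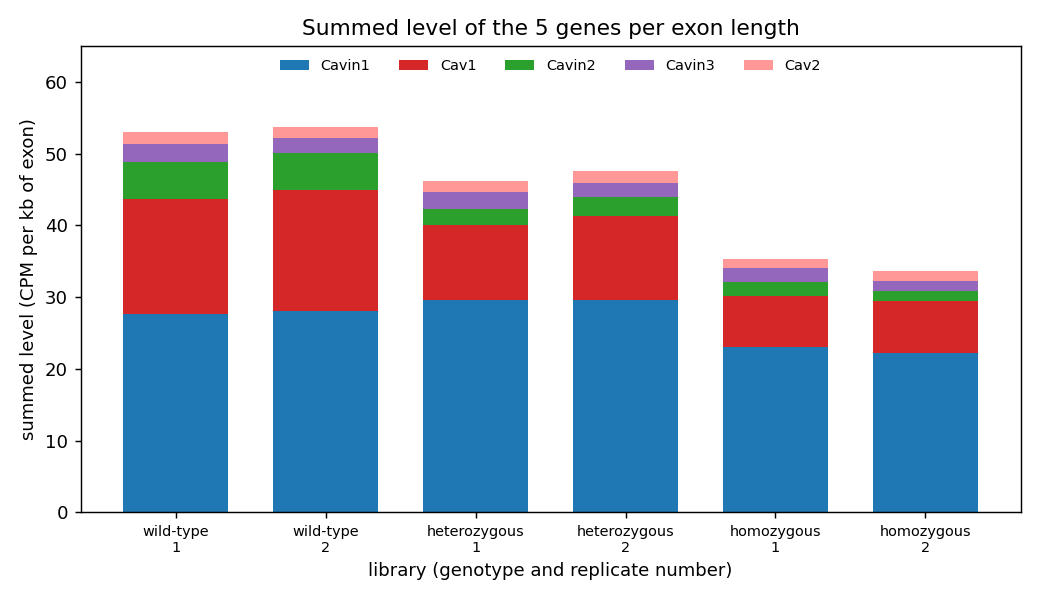
Summed level of the 5 genes in CPM per kb of exon in each library, stacked by gene. The *Cavin1* part stays between 22.3 and 29.6 while the *Cav1* part goes from about 16.4 in wild-type to 7.20 in homozygous libraries.

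Fibroblast markers moved along with *Cav1*. The median log2 fold change of the 24 tested markers was -0.52 in heterozygous and -1.11 in homozygous cells, beside -0.57 and -1.19 for *Cav1*, and 20 and 23 of the 24 were lower without overlap (24.0% and 29.4% of all tested genes). Past both thresholds, an absolute log2 fold change above 1 and an adjusted p below 0.05, were 0 of 24 in the heterozygous deletion. At an edgeR adjusted p below 0.05 without the fold threshold, 19 were lower and 0 higher there (2.91% and 2.23% of all tested genes). At an unadjusted p below 0.05 in edgeR there were 19 as well, beside 16.3% of all tested genes. In the homozygous deletion 16 of 24 were past both thresholds, all lower, where 1.86% of all tested genes were lower. Without the fold threshold 21 were lower and 0 higher (10.5% and 10.9%). *Cavin2* lay below the lowest marker in both comparisons, with -1.08 beside -0.88 for *Col6a1* and -1.67 beside -1.40 for *Thy1*. *Cav2*, *Cavin1* and *Cavin3* lay above the marker median in both comparisons. The marker list too was drawn up with earlier results of these data known, so its counts are a description. The part of fibroblasts in the values of the 5 genes was not tested.

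Of the other cell types with many caveolae, smooth muscle had 4 of 5 markers lower without overlap in homozygous cells (29.4% of all tested genes). *Acta2*, smooth muscle actin, had log2 fold changes of -0.50 and -1.15 in the heterozygous and homozygous deletion and *Myh11*, its myosin heavy chain, -0.75 and -1.34. *Tagln* and *Cnn1*, actin-binding proteins of contractile cells, were at 0.06 and 0.08 in the heterozygous and at -0.38 and -0.35 in the homozygous deletion, beside 0.09 and -0.30 for *Cavin1*. *Des*, the muscle intermediate filament desmin, followed neither course, at 0.10 against wild-type in each deletion. The summed level of the 5 smooth muscle markers ran from 336 to 349 CPM in wild-type, 269 to 277 in heterozygous and 183 to 189 in homozygous libraries. Which cells held this RNA was not tested, so the values do not show that smooth muscle cells were present. The 6 endothelial markers summed to between 15.9 and 18.2 CPM in any library, with *Emcn* at 0 in all but 1 library, and the 4 adipocyte markers to at most 0.443 CPM.

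**Figure D4:**
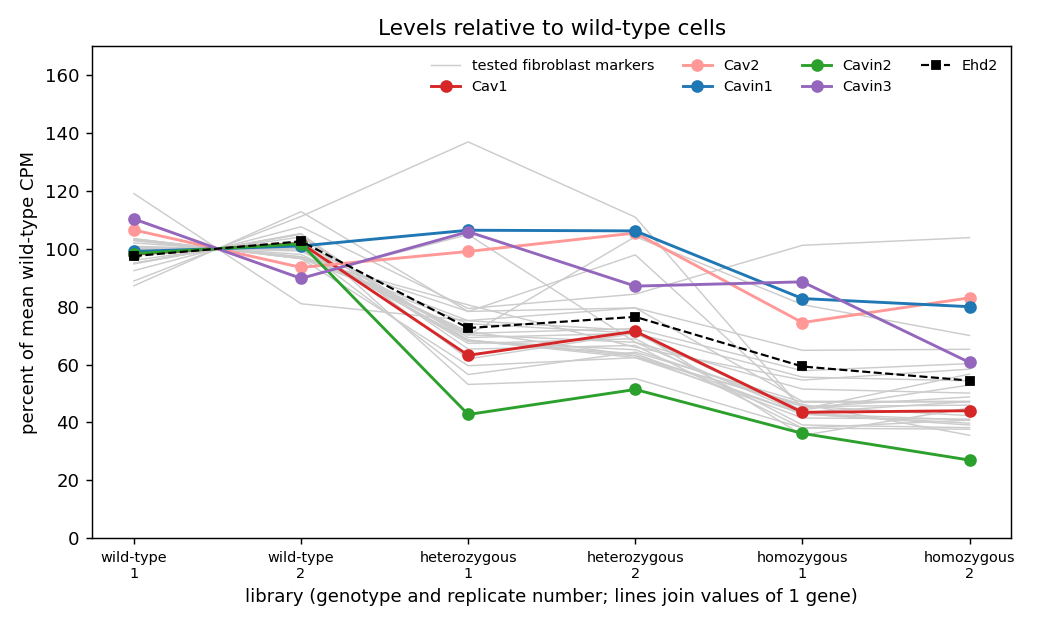
Level of each gene as percent of its mean wild-type CPM in the 6 libraries, with the 5 coat genes in color, *Ehd2* dashed and the 24 tested fibroblast markers in grey. *Cav1* ends at 43.5% and 44.1% in the homozygous libraries within the grey lines, *Cavin2* ends at 36.2% and 27.0%, and *Cavin1* at 82.8% and 80.0%.

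The genes that work with the coat were read from a list of 23 caveola partners, of which 22 were tested. Like the members, the list was drawn up with earlier results of these data known, so its counts beside all tested genes are a description. In edgeR's quasi-likelihood test 0 were past both thresholds in the heterozygous deletion (5 of 22 at an unadjusted p below 0.05, beside 16.3% of all tested genes, and 0 by DESeq2). Past both thresholds were 0.165% of all tested genes (0.124% lower, 0.0413% higher). In the homozygous deletion 0 were (10 of 22 at an unadjusted p below 0.05, beside 32.5% of all tested genes, and 0 by DESeq2). Past both thresholds were 2.14% of all (0.271% higher and 1.86% lower). Without the fold threshold, at an adjusted p below 0.05, 1 partner was lower and 1 higher in the heterozygous deletion (2.91% and 2.23% of all tested genes). In the homozygous deletion 5 were lower and 3 higher (10.5% and 10.9%). The median log2 fold change of the 22 was -0.02 in heterozygous and 0.00485 in homozygous cells, beside 3.68e-06 and -0.0061 over all tested genes.

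*Ehd2*, an ATPase that sits at the neck of caveolae and holds them at the membrane, was the partner that fell in both deletions. It was at 31.6 and 33.2 CPM in wild-type libraries, 23.5 and 24.8 in heterozygous libraries, and 19.2 and 17.6 in homozygous libraries, without overlap. Its log2 fold change was -0.42 (SE 0.0693, edgeR adjusted p = 0.000654, from the quasi-likelihood test with adjustment after Benjamini and Hochberg, as for all partners) and -0.81 (SE 0.0726, edgeR adjusted p = 6.23e-08). It was also lower in homozygous than in heterozygous cells, by -0.39 on the log2 scale (SE 0.0757, edgeR adjusted p = 0.000648). The other 3 genes of its family, *Ehd1*, *Ehd3* and *Ehd4*, which act in endosome recycling, did not pass in either deletion, with log2 fold changes between 0.00487 and 0.14. *Ehd1* had the highest level per length of the membrane-shaping genes, at 45.4 ± 0.646 CPM per kb in wild-type cells (SD, n = 2), beside 6.33 ± 0.229 for *Ehd2*. *Pacsin3*, a membrane-curving F-BAR protein, fell in the homozygous deletion, from 21.2 and 18.6 CPM to 15.6 and 15.3 (log2 fold change -0.37, SE 0.0954, edgeR adjusted p = 0.00812, or from 0.000443 to 0.156 over the alternatives).

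*Ror1*, a receptor tyrosine kinase known as a scaffold for caveolin-1 and cavin-1, was at 7.32 and 6.58 CPM in wild-type libraries, 6.43 and 7.25 in heterozygous libraries, and 4.76 and 3.34 in homozygous libraries. The heterozygous libraries overlapped the wild-type ones and both homozygous libraries were lower. Its log2 fold change was -0.79 in the homozygous deletion (SE 0.151, edgeR adjusted p = 0.000645). Heterozygous cells had -0.02 (edgeR adjusted p = 0.962). Of the kinases, *Prkca* fell in the homozygous deletion (log2 fold change -0.38, edgeR adjusted p = 0.0242, or from 0.012 to 0.196 over the alternatives) and *Prkcd*, which encodes the kinase bound by cavin-3, rose in the heterozygous deletion (0.20, edgeR adjusted p = 0.0447, or from 0.0214 to 0.329 over the alternatives). *Flna*, the actin crosslinker filamin A, had the highest level of this group, at 172 ± 4.16 CPM per kb in wild-type cells (SD, n = 2), and did not pass in either deletion.

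Flotillins, which scaffold membrane rafts without caveolae, went opposite ways in the homozygous deletion. *Flot1* fell by 0.27 on the log2 scale (edgeR adjusted p = 0.0237, or from 0.00807 to 0.229 over the alternatives) and *Flot2*, the higher of the pair at 18.7 ± 0.503 CPM per kb in wild-type cells (SD, n = 2), rose by 0.27 (edgeR adjusted p = 0.00142). Of membrane proteins that caveolin binds, *Insr*, the insulin receptor, rose in the homozygous deletion by 0.39 (edgeR adjusted p = 0.000148). *Insr* lies on chromosome 8, over whose 890 tested genes the median log2 fold change in that comparison was 0.39 as well. *Lrp6*, a Wnt co-receptor and the highest of the group at 5.88 ± 0.0136 CPM per kb (SD, n = 2), rose by 0.16 (edgeR adjusted p = 0.0235, or from 0.0202 to 0.141 over the alternatives). Between the deletions 1 partner was past both thresholds, *Nos3*, endothelial nitric oxide synthase, higher in homozygous cells by 1.12 (SE 0.281, edgeR adjusted p = 0.00597, or from 0.000558 to 0.0585 over the alternatives), where 1.39% of all tested genes passed (0.496% higher and 0.897% lower). Without heterozygous replicate 2 or homozygous replicate 2 the call was lost. Its counts were 40 and 30 in wild-type libraries, 21 and 20 in heterozygous libraries, and 34 and 51 in homozygous libraries.

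The muscle coat genes differed in detection. *Cav3* had at most 1 count in any library, so no fold change is given. *Cavin4* was at 3.17 and 3.21 CPM in wild-type libraries, 3.74 and 3.83 in heterozygous libraries, and 3.14 and 2.88 in homozygous libraries, and did not pass in any comparison. Per length its wild-type level of 1.55 ± 0.0158 CPM per kb (SD, n = 2) lay beside the 1.58 ± 0.145 of *Cav2*.

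**Figure D5:**
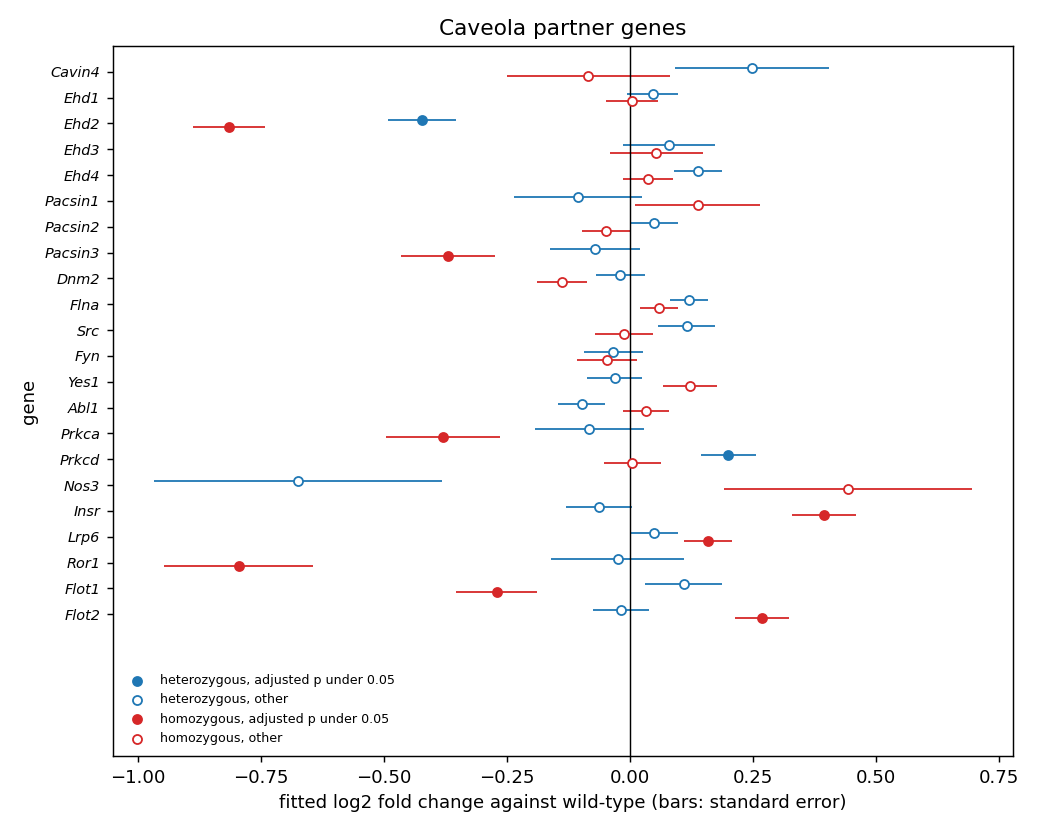
Fitted log2 fold change against wild-type of the 22 tested partner genes, with bars for the standard error and filled points for an edgeR adjusted p below 0.05. *Ehd2* is filled and below 0 in both deletions, and 18 of the 22 heterozygous values lie within 0.2 of 0.

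The genes closest in pattern to each member were taken as the 3 with the highest Pearson correlation of log2(CPM + 0.5) over the 6 libraries, among 13898 tested genes with a mean of at least 1 CPM. The measure ignores the size of a change, and the libraries share depth and genotype, so the values are a description. For *Cav1* these were *Tmem173* (r = 0.9997), *Ccdc80* (r = 0.999), a secreted matrix protein, and *Lhfp* (r = 0.997), with homozygous log2 fold changes between -1.54 and -0.96. For *Cavin2* they were *Bicd2* (r = 0.997), *Spp1* (r = 0.994), which encodes the matrix protein osteopontin, and *Col10a1* (r = 0.993), a collagen, with -0.18, -0.61 and -1.08. For *Cavin1* they were *Anxa2* (r = 0.998), a membrane-binding annexin, *Slitrk6* (r = 0.997) and *Fhl2* (r = 0.997), all above 0 in the heterozygous and below 0 in the homozygous deletion. For *Cav2* they were *Fam214a* (r = 0.998), *Celf2* (r = 0.996) and *Zfp976* (r = 0.993), and for *Cavin3* *Slc36a1* (r = 0.99), *Ccdc74a* (r = 0.986) and *Extl2* (r = 0.986). Among the members themselves, *Cav1* and *Cavin2* were the closest pair (r = 0.964), followed by *Cav2* and *Cavin1* (r = 0.866).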

How the data were processed

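RNA was sequenced as stranded poly(A) libraries from 6 mESC samples, and genotype and replicate number came from the sample labels, 2 libraries per genotype where the methods state triplicates. The deposited values were raw read counts for each gene, without normalization by the authors. The submitters' processing notes name Trimmomatic 0.39, STAR 2.6.1d, SAMtools 1.9, featureCounts 1.6.4 and DESeq2 1.22.2 and the builds mm10 and GRCm38, without parameters.

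A gene was tested if 2 or more libraries held 10 or more of its counts, with edgeR 4.0.16 (quasi-likelihood test, TMM factors, R 4.3.3) in a single model of 3 genotypes. The threshold was an adjusted p (Benjamini-Hochberg, over all tested genes) below 0.05 together with a log2 fold change beyond 1 in either direction. The methods call the replicates biological, and the labels do not say whether they are separate cultures or clones, so p-values measure the spread between these libraries. Replicates differed by more than sampling noise (chi-square per degree of freedom from 2.34 to 3.65). Positions and exon lengths came from GENCODE on GRCm38, with an entry for 55144 genes.

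The members and lists were chosen with earlier results of these data known. All members are named, as are partners past the threshold in any comparison, the partner of highest level per role, the nearest tested genes beside *Cav1*, *Cav2* and *Cavin2*, and the 3 genes of most similar pattern per member. Partners at an adjusted p below 0.05 under the fold threshold, the other *Ehd* genes and the single cell type markers were added after their values were seen. Alternatives tried were DESeq2 1.42.0, the size factors of DESeq2, total counts, no filter, a replicate block, only the libraries compared and each replicate left out. The script was tested on simulated data. Protein sequences were not used here.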

Additional observations from a re-analysis of the deposited data

Results flagged for a closer look

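The groups of 2 libraries are too small for a check of single outlying libraries. The effects of the 2 deletions against wild-type differed, by the direct test of homozygous against heterozygous cells at an edgeR adjusted p below 0.05, for 9 of 22 partner genes, where 12.9% of all tested genes were lower and 12.9% higher in that test. The log2 fold changes were -0.39 for *Ehd2*, -0.30 for *Pacsin3*, -0.20 for *Prkcd*, -0.77 for *Ror1* and -0.38 for *Flot1*. They were 0.13 for *Abl1*, 1.12 for *Nos3*, 0.46 for *Insr* and 0.29 for *Flot2*. Over the alternatives the adjusted p reached 0.05 or more for *Abl1* in 8 of 10 (up to 0.327), for *Prkcd* in 4 of 10 (up to 0.104), for *Pacsin3* in 3 of 10 (up to 0.358) and for *Nos3* in 2 of 9 (up to 0.0585), and for the other 5 genes in none. Beside *Insr*, the chromosome 8 genes had a median of 0.51 in the same comparison.

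*Cavin1* was higher than wild-type in both heterozygous libraries and lower in both homozygous libraries, with log2 fold changes of 0.09 and -0.30 against wild-type. The difference between the deletions was not tested, since *Cavin1* was chosen with these values known.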

How the results depend on the processing

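Of 155 fold changes of single members under alternatives, 141 moved by less than the replicate spread, 10 by more and 4 changed sign. With 1 replicate left out, *Cav1* ran from -0.66 to -0.48 in the heterozygous and -1.22 to -1.16 in the homozygous deletion, and *Cavin2* from -1.22 to -0.96 and -1.89 to -1.46. Against wild-type, heterozygous *Cav2* ran from -0.057 (without wild-type replicate 2; -0.02 without heterozygous replicate 2) to 0.13. *Cavin3* ran from -0.21 to 0.10 (without wild-type replicate 1; 0.07 without heterozygous replicate 2). The median log2 fold change of the 5 caveolin and cavin genes ran from -0.21 to 0.074 (without wild-type replicate 1), so none of these kept its sign. The median ran from -0.73 (without homozygous replicate 1) to -0.31 in the homozygous deletion and from -0.61 (without homozygous replicate 1) to -0.38 between the deletions.

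For the heterozygous deletion 28 genes were past the threshold, 49 with no filter, 11 with DESeq2 and 14 (without wild-type replicate 2) to 23 with 1 replicate left out. The homozygous deletion gave 362, or 205 with DESeq2, and the deletions against each other 236, or 71 with DESeq2 and 170 to 387 (without homozygous replicate 2) with 1 replicate left out. Partners past the threshold between the deletions were 1, or 0 with DESeq2, which gave *Nos3* no adjusted p, and 0 to 2 with 1 replicate left out (0 without heterozygous replicate 2 or homozygous replicate 2, and 2 without homozygous replicate 1). In the homozygous deletion they were 0, or 0 to 1 (*Ror1* without homozygous replicate 1). At an adjusted p below 0.05 *Prkcd* lost its heterozygous call in 8 of 10 alternatives. In the homozygous deletion *Prkca* lost it in 4, *Lrp6* in 5, *Flot1* in 3 and *Pacsin3* in 1 (without wild-type replicate 1, edgeR adjusted p = 0.156, range 0.000443 to 0.156) of 11, and *Ehd2*, *Ror1*, *Insr* and *Flot2* in none.

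With the replicate block 27, 344 and 225 genes were past the threshold in the 3 comparisons, and the partner counts stayed at 0, 0 and 1. Same-numbered libraries did not deviate together (correlations across genes of 0.0262, -0.125 and 0.0113). With the homozygous numbers crossed, chosen after seeing the data, 343 genes passed against wild-type. The depth limits *Cav3*, and 2 libraries a genotype limit *Cavin3*, *Cav2* and *Nos3*.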

Other observations

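The nearest tested genes on either side of the coat genes were read for comparison. *Cav2* and *Cav1* lie between *Tes*, a focal adhesion protein 175 kb before them, and *Met*, the hepatocyte growth factor receptor 122 kb after them. *Met* rose from 12.3 ± 0.572 CPM in wild-type to 16.7 ± 1.38 CPM in heterozygous cells (SD, n = 2 each). Its log2 fold change was 0.44 (SE 0.0903, edgeR adjusted p = 0.0048), where *Cav1* was at -0.57. In the homozygous deletion *Tes* and *Met* were at -0.12 and -0.13 (edgeR adjusted p = 0.188 and 0.39), where *Cav1* was at -1.19.

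*Cavin2* lies between *Tmeff2*, 102 kb before it, and *Nabp1*, a single-stranded DNA binding protein 163 kb after it. Both fell in the homozygous deletion, where 10.5% of all tested genes were lower at an edgeR adjusted p below 0.05. *Tmeff2* was at -0.71 on the log2 scale (SE 0.228, edgeR adjusted p = 0.0311) and *Nabp1* at -0.35 (SE 0.0592, edgeR adjusted p = 0.000213), beside -1.67 for *Cavin2*. In the heterozygous deletion *Tmeff2* was at -0.36 and *Nabp1* at -0.02 (edgeR adjusted p = 0.441 and 0.932), beside -1.08 for *Cavin2*. *Tmeff2* rested on 35 to 85 counts a library.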
